A study of Mus musculus with 30 samples.

Results

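The 6 genes Maoa, Zfp979, AW209491, C430042M11Rik, Rsph1 and Crlf2 were chosen from the 55401 genes of the count table because they were expressed in most libraries labelled DMSO and near 0 in most labelled Pac. The choice used the level of each gene in these same libraries, so the levels, states and fold changes of the 6 genes below are a description and carry no test. The cells are the Eµ-Myc; p19ARF -/- line, a mouse B-cell lymphoma line that carries a Myc transgene under an immunoglobulin enhancer and lacks the tumour suppressor p19ARF, and all lines, controls included, share this background. Of 30 lines with 1 library each, 17 were treated with paclitaxel, 12 received the solvent DMSO in its place and 1 was the untreated parental line. Each cycle gave 10000 cells per well a dose meant to kill 85% of them over 3 days, followed by 4 days of recovery, and cycles were repeated for 12 to 18 weeks. The labels give no further subdivision of the lines, do not say whether a line went back to a single cell, and name the lines only by well or number. RNA was measured as 3′-end digital gene expression, in which a library holds counts from the end of each transcript.

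Paclitaxel binds and stabilises microtubules and stops dividing cells in mitosis. The 6 genes are known for different processes. Maoa encodes monoamine oxidase A, an enzyme of the outer mitochondrial membrane that breaks down serotonin and noradrenaline. Zfp979 encodes a zinc finger protein and lies on mouse chromosome 4 in a region rich in zinc finger genes, many of which carry a KRAB domain that recruits the co-repressor Trim28. AW209491 is a protein-coding gene known mainly by its clone name, and C430042M11Rik is annotated as a long intergenic non-coding RNA. Rsph1 encodes a protein of the radial spoke head, a part of motile cilia and sperm tails. Crlf2 encodes the receptor chain for the cytokine TSLP, which signals together with the IL-7 receptor chain Il7r in lymphoid cells.

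Library totals ranged from 480919 counts (Pac C1) to 6739131 (DMSO 11), with medians of 4052241.5 among libraries labelled DMSO and 3263532 among those labelled Pac. The parental library held 1851837. Levels are given as CPM, the counts of a gene for each 1000000 counts of its library after scaling by edgeR's TMM factors. A count of 3, used here as the floor of detection, was worth between 0.435 and 6.23 CPM depending on the library. All 10 B-cell markers were detected, and their summed level was 2683 to 5001 CPM in libraries labelled DMSO, 1736 to 4537 CPM in those labelled Pac and 3130 CPM in the parental library. Summed fibroblast and epithelial markers each stayed under 1 CPM in every library. Summed T-cell markers reached 10.0 CPM in DMSO and 19.4 CPM in Pac libraries, NK-cell markers 15.5 and 2.78, myeloid markers 27.96 and 50.8, and erythroid markers 72.0 and 249.7, while Cd3e, Trac, Hbb-bs and Hba-a1 never exceeded 3 counts. Their part in the results was not tested.

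Some libraries went against their labels. Over the 9440 tested genes other than the 6, the library labelled DMSO 12 lay nearer to the mean Pac profile than to the mean profile of the other DMSO libraries (Euclidean distances of 80.6 and 88.0 on the log2 CPM scale), and the library labelled Pac H9 lay nearer to the mean DMSO profile (91.1) than to that of the other Pac libraries (95.9). The same held for DMSO 11 (82.4 to Pac and 88.2 to DMSO) and for Pac C1, the smallest library (144.2 to Pac and 141.9 to DMSO). Each of the other 10 DMSO and 15 Pac libraries was closer to the mean of its own class. The parental library was closer to DMSO (72.9 against 86.9). This measure was chosen after the data were seen. The mean distance to single libraries, which also carries the spread of each class, put 12 of 12 DMSO libraries but only 4 of 17 Pac libraries nearer to their own class. The levels and fold changes of the 6 genes are given by the deposited labels and again without the libraries labelled DMSO 12 and Pac H9. Of the libraries that stood apart, these are also the ones in which Maoa, Zfp979 and AW209491 were exceptions, so leaving them out by itself parts the groups and enlarges the folds of these genes.

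The letters before the transcription start of the genes are shown first for the genes that were on and off in the same libraries. RefSeq windows on GRCm38.p6, from 250 bases before to 50 bases after the start, were found for 5 of the 6 genes. The windows of Maoa (chrX:16619448-16619747, plus strand), Zfp979 (chr4:147642459-147642758, minus strand) and AW209491 (chr13:14629995-14630294, plus strand) are printed because these 3 genes had the same state in all 30 libraries at the limit of 10% of the DMSO median set out below. That of Crlf2 (chr5:109558944-109559243, minus strand) is printed because it had the highest number of CpG dinucleotides of the 5. Sequences run 5′ to 3′ along the gene's strand, and capitals mark CpG.
Maoa: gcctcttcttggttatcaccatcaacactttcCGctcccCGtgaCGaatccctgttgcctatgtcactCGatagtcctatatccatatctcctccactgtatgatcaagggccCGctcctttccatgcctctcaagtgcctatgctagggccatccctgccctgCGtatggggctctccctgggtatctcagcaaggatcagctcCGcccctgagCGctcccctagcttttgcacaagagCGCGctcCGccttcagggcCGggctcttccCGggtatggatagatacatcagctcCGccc
Zfp979: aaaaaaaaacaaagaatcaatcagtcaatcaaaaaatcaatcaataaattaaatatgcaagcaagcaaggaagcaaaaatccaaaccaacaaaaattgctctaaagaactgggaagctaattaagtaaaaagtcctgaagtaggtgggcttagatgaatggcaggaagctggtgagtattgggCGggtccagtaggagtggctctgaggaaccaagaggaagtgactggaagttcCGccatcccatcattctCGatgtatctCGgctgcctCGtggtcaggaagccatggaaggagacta
AW209491: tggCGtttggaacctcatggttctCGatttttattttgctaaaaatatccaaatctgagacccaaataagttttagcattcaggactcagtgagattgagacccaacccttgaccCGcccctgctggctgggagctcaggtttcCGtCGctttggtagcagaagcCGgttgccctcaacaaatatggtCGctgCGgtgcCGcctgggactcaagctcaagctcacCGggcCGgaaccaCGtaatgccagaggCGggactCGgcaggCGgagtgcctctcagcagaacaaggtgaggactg
Crlf2: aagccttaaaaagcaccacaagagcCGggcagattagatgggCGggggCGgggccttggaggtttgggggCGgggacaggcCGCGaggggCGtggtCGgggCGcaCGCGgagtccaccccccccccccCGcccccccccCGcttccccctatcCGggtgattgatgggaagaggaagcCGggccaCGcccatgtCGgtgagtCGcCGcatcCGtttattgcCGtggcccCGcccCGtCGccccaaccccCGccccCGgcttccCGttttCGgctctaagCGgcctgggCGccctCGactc

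CpG dinucleotides numbered 14 in the Maoa window, 5 in that of Zfp979, 15 in that of AW209491, 6 in that of C430042M11Rik (chr17:83854369-83854668, minus strand) and 31 in that of Crlf2. The median over 32841 windows of this kind was 7, so the genes that shared a state lay on both sides of it. The observed over expected CpG ratio was 0.602 for Maoa, 0.383 for Zfp979, 0.678 for AW209491, 0.286 for C430042M11Rik and 0.808 for Crlf2, against a median of 0.384. G and C made up 57.7%, 42.3%, 54.3%, 53.0% and 71.7% of the same windows in that order (median 52.7%). A GC box (GGGCGG, either strand) was present in 5 of 5 windows and in 35.7% of all windows. A CCAAT box (CCAAT, either strand) was present in the window of Zfp979 alone among the 5 and in 37.4% of all. The E-box CACGTG (in 7.15% of all windows, both strands read) and the TATA box TATAAA (13.6%, either strand) were in none of the 5. These matches describe the letters only and were not tested. The windows of all genes include those of genes not expressed in these cells.

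A gene was called on in a library when it had more than 3 counts and at least 10% of its median CPM over the libraries labelled DMSO. It was called undetermined when it had 3 counts or fewer in a library where fewer than 10 were expected at that median, and off otherwise.

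Maoa (ENSMUSG00000025037.6, chrX:16619698-16687818, plus strand) was on in 11 of 12 libraries labelled DMSO and off in 16 of 17 labelled Pac. Its level in the DMSO libraries had a lowest value of 2.01 CPM, a median of 50.7 and a highest of 74.0, and the Pac libraries had a lowest and a median of 0 and a highest of 17.1. The lowest DMSO value was that of DMSO 12, with 4 counts, and the highest Pac value was that of Pac H9, with 19 counts. Without these libraries the groups did not overlap, at 31.7 to 74.0 CPM (51.6 ± 12.2, SD, n = 11) and 0 to 0.997 CPM (0.162 ± 0.337, SD, n = 16). No Maoa count was found in 12 of those 16 Pac libraries. The fitted log2 fold change of Pac against DMSO was -6.16 (SE 0.662), and -7.94 without DMSO 12 and Pac H9. The parental library, at 48.0 CPM (81 counts), was within the range of DMSO 1 to DMSO 11.

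Zfp979 (ENSMUSG00000066000.12, chr4:147611937-147642513, minus strand) followed the same libraries. DMSO libraries ran from 0 CPM (DMSO 12) through a median of 31.7 to 45.2, and Pac libraries from 0 through a median of 0 to 16.2 (Pac H9, 18 counts). Without DMSO 12 and Pac H9 the level was 33.3 ± 7.58 CPM (SD, n = 11) against 0.122 ± 0.216 (SD, n = 16), and no Pac library had more than 2 counts. The log2 fold change was -5.65 (SE 0.688), or -7.58 without those libraries. The parental library had 30.2 CPM. A processed pseudogene inside Zfp979, Gm13155, was listed at 0 counts in every library.

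AW209491 (ENSMUSG00000039182.6, chr13:14630154-14639096, plus strand) was also off in the same 16 Pac libraries. DMSO libraries ran from 0.502 CPM (DMSO 12) through a median of 26.6 to 33.3, and Pac libraries from 0 through a median of 0 to 18.0 (Pac H9). The level was 26.5 ± 5.20 CPM (SD, n = 11) against 0.222 ± 0.496 (SD, n = 16) without those libraries, and the highest remaining Pac library was E1 with 7 counts (1.63 CPM, 6.15% of the DMSO median). The log2 fold change was -4.88 (SE 0.684), or -6.42 without DMSO 12 and Pac H9. AW209491 lies inside Psma2, a proteasome subunit gene on the same strand that had 104447 counts in all and a log2 fold change of -0.40 (SE 0.164, edgeR adjusted p = 0.121). Reads from the overlap of genes on 1 strand may be misassigned or left out, and how these were treated was not tested.

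Rsph1 (ENSMUSG00000024033.10, chr17:31255019-31277383, minus strand) varied most of the 6 genes among the DMSO lines. DMSO libraries ran from 4.52 CPM (DMSO 12) through a median of 61.5 to 204.1 (DMSO 4, 1272 counts), and DMSO 5 had 11.3 CPM. The highest of DMSO 1 to DMSO 11 was 18.1 times the lowest. This ratio was 9.30 for Crlf2, 2.90 for C430042M11Rik, 2.33 for Maoa, 2.21 for Zfp979 and 1.84 for AW209491. Pac libraries ran from 0 through a median of 1.03 to 8.30 CPM. Rsph1 was off in 15 of 17, and the exceptions were Pac H9 (8 counts, 11.7% of the DMSO median) and Pac C1 (4 counts, 13.5%), both just above the limit of 10%. Just below it lay DMSO 12 (7.36%), Pac A6 and Pac B2 (both 7.30%). Counts above the floor were found in 9 of the 17 Pac libraries, so Rsph1 was low and not at 0 in many of them. The log2 fold change was -5.33 (SE 0.535), or -5.62 without DMSO 12 and Pac H9. The parental library had 112.6 CPM. An antisense gene overlaps Rsph1 and held 11 counts in all 30 libraries.

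C430042M11Rik (ENSMUSG00000097254.2, chr17:83851675-83854418, minus strand) had low levels throughout. DMSO libraries ran from 0.502 CPM (DMSO 12, 1 count) through a median of 7.05 to 11.8, and Pac libraries from 0 through a median of 0 to 4.15. The highest Pac value rests on 2 counts in Pac C1 and was called undetermined. The gene was off in 10 Pac libraries, undetermined in 4 and on in Pac F10 (9 counts), Pac H1 (5 counts) and Pac H4 (16 counts), at 1.57, 2.43 and 2.46 CPM. These levels were 22.3%, 34.5% and 34.9% of the DMSO median and below the lowest of DMSO 1 to DMSO 11 (4.06 CPM). The log2 fold change was -3.55 (SE 0.550), or -3.63 without DMSO 12 and Pac H9. The parental library had 11.9 CPM from 20 counts, a little above the highest DMSO library.

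Crlf2 (ENSMUSG00000033467.12, chr5:109554709-109558993, minus strand) had the fewest counts of the 6 (237 in all libraries) and was removed by the filter on low counts. DMSO libraries ran from 0 CPM (DMSO 12) through a median of 4.03 to 10.5, and Pac libraries from 0 through a median of 0 to 2.80. It was off in 9 Pac libraries and undetermined in 7, of which Pac H9 had 1 count. Pac F10 was the exception with 16 counts (2.80 CPM, 69.4% of the DMSO median), which lay inside the range of DMSO 1 to DMSO 11 (1.13 to 10.5 CPM). The log2 ratio of the mean levels was -4.17, and the fit without DMSO 12 and Pac H9, in which Crlf2 was kept, gave -3.97. The parental library had 2 counts where 6.80 were expected at the DMSO median, and its state was undetermined.

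**Figure D1:**
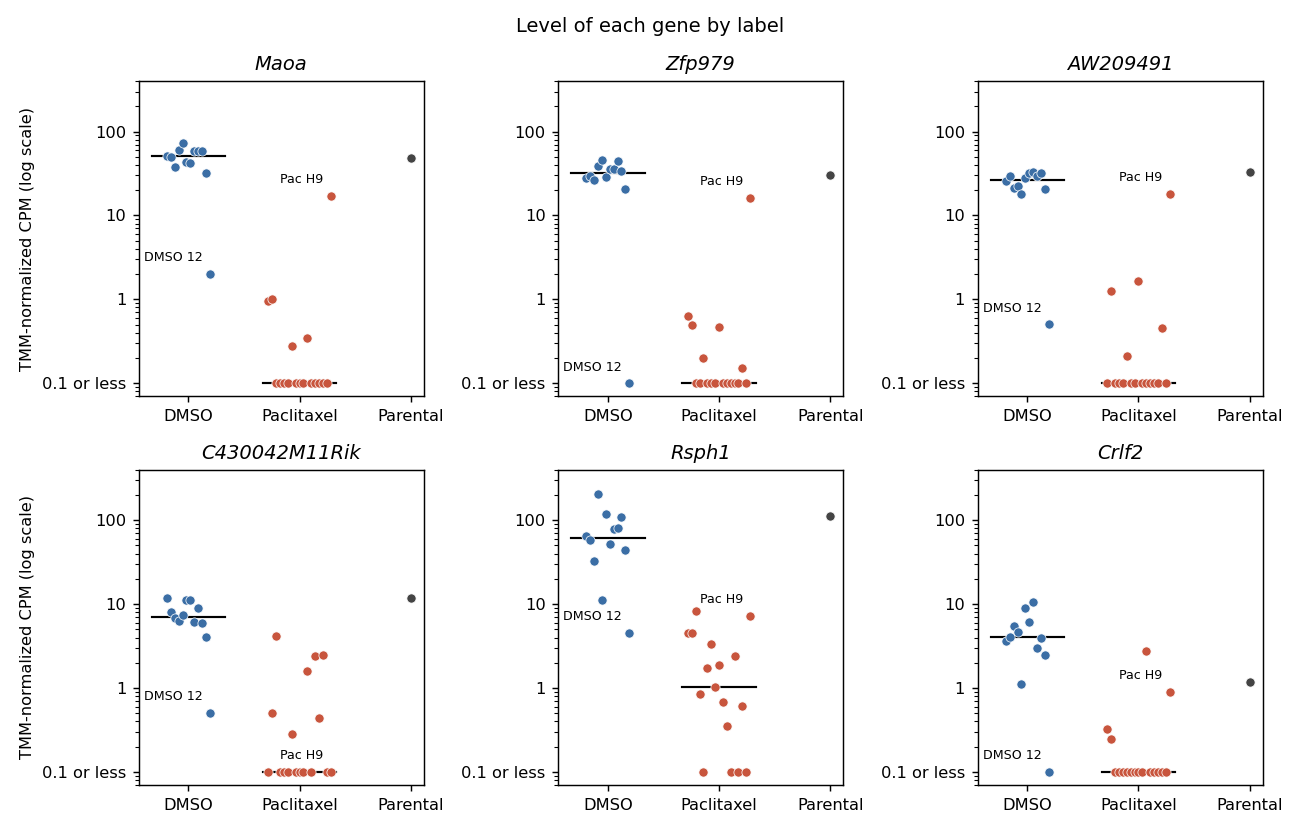
TMM-normalized CPM of each gene on a log axis, 1 point per library (12 DMSO, 17 Paclitaxel, 1 Parental), with values of 0.1 or less drawn at 0.1, black bars at group medians and the libraries labelled DMSO 12 and Pac H9 named. For Maoa, DMSO libraries other than DMSO 12 sit between 31.7 and 74.0 CPM and Pac libraries other than H9 at or below 0.997 CPM.

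Summing counts gave a closer limit on what remained. Over the 16 Pac libraries other than H9, Maoa had 10 counts in all, or 0.177 CPM (95% exact Poisson interval 0.0849 to 0.326, counting error only), which was 0.357% of the level pooled over DMSO 1 to DMSO 11. The same share was 0.449% for Zfp979 (8 counts), 1.11% for AW209491 (16 counts), 1.82% for Rsph1 (80 counts), 6.72% for Crlf2 (18 counts) and 8.30% for C430042M11Rik (36 counts). For Crlf2, 16 of the 18 counts came from Pac F10, and for C430042M11Rik 16 of the 36 came from Pac H4. The 6 genes thus fell into those with almost no counts left outside Pac H9 (Maoa, Zfp979, AW209491), 1 with a low remainder spread over libraries (Rsph1), and a pair whose remainder sat in few libraries (C430042M11Rik, Crlf2). Each library pools the RNA of a line, so a few cells with the gene on and a low level in all cells cannot be told apart.

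The genes were mostly on together or off together, which their choice partly fixes. In 10 of the 12 libraries labelled DMSO all 6 genes were on. DMSO 9, a small library, had 5 on and Crlf2 undetermined, and DMSO 12 had 5 off and Crlf2 undetermined. In 8 of the 17 libraries labelled Pac all 6 genes were off (A6, B2, C11, D4, D7, E1, E2 and G9), and in 4 more (C3, D10, H3 and H8) each gene was off or undetermined. Another 4 Pac libraries were mixed, with Rsph1 on in C1, C430042M11Rik on in H1 and H4, and C430042M11Rik and Crlf2 on in F10. Pac H9 had no gene off at these limits, with 4 on and 2 undetermined. The undetermined were C430042M11Rik (0 counts where 7.83 were expected) and Crlf2 (1 count where 4.48 were expected). When 5 expected counts were enough, C430042M11Rik was off there. Of the 15 pairs of genes, 3 (Maoa with Zfp979, Maoa with AW209491, and Zfp979 with AW209491) never differed in state in the 17 Pac libraries, and no pair differed in more than 3 of the 10 to 17 libraries in which both were determined. For the pairs with AW209491, equal states in the 17 Pac libraries held at the 10% limit and not at every other. Maoa and Zfp979 had the same state in every Pac library at the limits of 5% and 25% of the DMSO median and 1 CPM. With off under 5% of the DMSO median AW209491 was on in Pac E1, and with off under 1 CPM it was on in Pac B2 and Pac E1 and Maoa was on in DMSO 12, where Zfp979 and AW209491 were off.

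**Figure D2:**
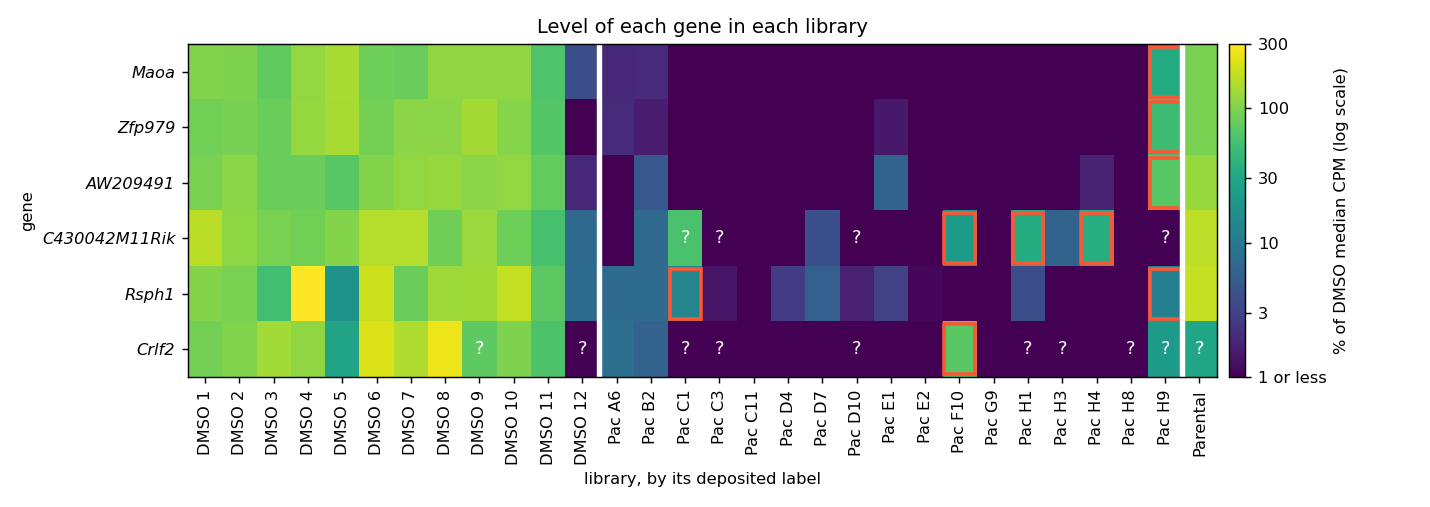
Level of each of the 6 genes (rows) in each of the 30 libraries (columns, by deposited label) as a percent of the gene's median CPM over the DMSO libraries, on a log colour scale with 1% or less as the darkest colour. Question marks show undetermined states and red frames show genes that were on in a library labelled Pac, which are most frequent in Pac H9.

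The library labelled Pac H9 held lower levels than most control lines. Its levels of 17.1 CPM (Maoa), 16.2 (Zfp979), 18.0 (AW209491) and 7.20 (Rsph1) were 33.7%, 51.2%, 67.7% and 11.7% of the DMSO medians, and each lay below the lowest of DMSO 1 to DMSO 11, which were 31.7, 20.4, 18.1 and 11.3 CPM. These gaps were not tested. These values rest on 19, 18, 20 and 8 counts in a library of 1143797. The library labelled DMSO 12 held 4, 0, 1 and 9 counts of the same genes in a total of 2077965, where 101.0, 63.0, 52.9 and 122.3 were expected at the DMSO medians. With every label from DMSO 12 on moved by 1 library, so that DMSO 12 counted as Pac, Pac H9 as the parental line and the parental library as DMSO, Maoa, Zfp979 and AW209491 were off in 17 of 17 Pac and on in 12 of 12 DMSO libraries. The shift moves the exceptional libraries themselves, so these counts restate the exceptions. Under that shift Rsph1 was off in 16 of 17 Pac libraries, C430042M11Rik in 11 and Crlf2 in 9, and the line names of the exceptions above would change.

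Few of the tested genes behaved like this. The filter on low counts asks for expression in about as many libraries as the smaller group holds. A gene near 0 in DMSO 12 and in every Pac library therefore fails it, and genes that failed were not counted. Of the 9445 genes that passed the filter, 11 (0.116%) were on in at least 9 of the 12 DMSO libraries and off in at least 13 of the 17 Pac libraries, and 7 genes showed the reverse. Maoa, Zfp979, AW209491 and Rsph1 were among the 11, and this count includes the genes the choice rested on. Off in 16 Pac libraries, among the tested genes, were Maoa, Zfp979 and AW209491 alone. The 11 genes lay on 10 chromosomes. All 11 were off in the library labelled DMSO 12 and on in the parental library, and in Pac H9 9 were on and 2 off. Off in DMSO 12, a gene near 0 in every Pac library would not have passed the filter, so these states are partly fixed. In the fit without Pac H9, Maoa, Zfp979 and AW209491 did not pass it. Without DMSO 12 and Pac H9, 15 of 9567 genes met the same shares, with the moved labels 13 of 9444, and both lists held all 11.

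**Figure D3:**
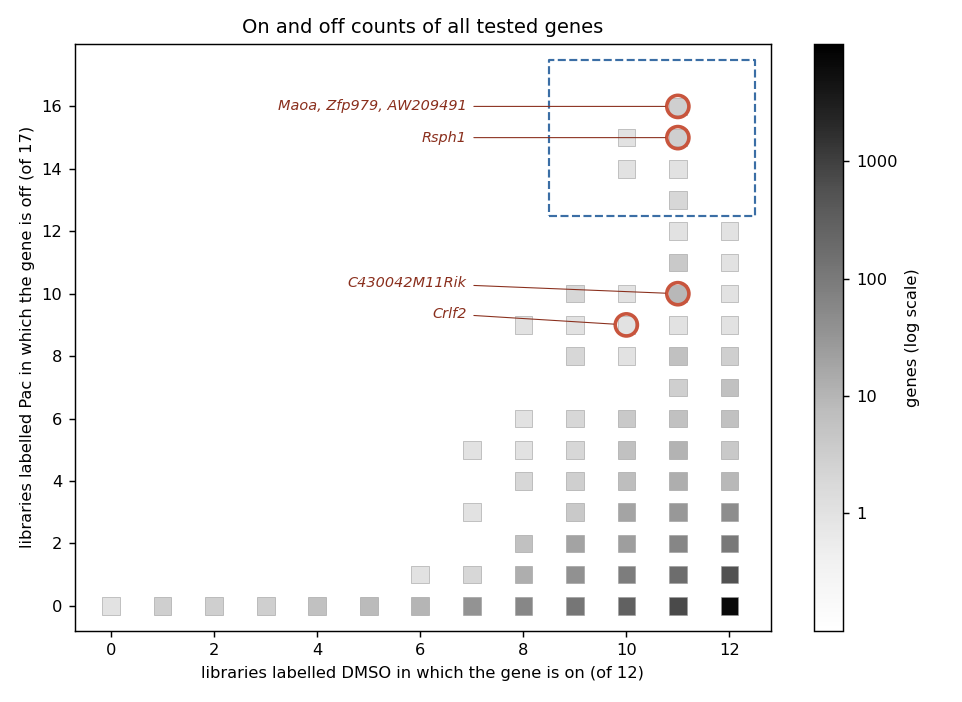
Number of libraries labelled DMSO in which a gene was on (x axis, of 12) and number labelled Pac in which it was off (y axis, of 17) for the 9445 tested genes, with grey squares for the number of genes on a log scale, red circles for the 6 genes (Crlf2 was not among the tested genes) and a dashed box around the 11 genes. Most genes sit at the lower right, on in all DMSO libraries and off in no Pac library.

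The gene outside the 6 whose state was most like theirs was Lipo3, named for a lipase family member. It was in the same state as Maoa, Zfp979, AW209491 and Rsph1 in 29 of 30 libraries each (Pearson correlations over libraries of 0.961, 0.973, 0.956 and 0.905 on log2 CPM, with all points falling into the same 2 classes of library). Its mean level was 16.1 ± 6.74 CPM (SD, n = 12) in DMSO and 1.36 ± 5.01 (SD, n = 17) in Pac libraries, and its only Pac library called on was H9, at 20.7 CPM. Without DMSO 12 and Pac H9 these levels were 17.53 ± 4.67 CPM (SD, n = 11) and 0.150 ± 0.520 (SD, n = 16). C430042M11Rik shared its state with Rsph1, Lipo3 and Maoa in 23 each of the 26 libraries in which it was determined, and Crlf2 with Maoa, Zfp979 and AW209491 in 19 each of 20. The order within these ties, Rsph1 first (Pearson 0.838) and Maoa first (0.882), came from the correlation alone.

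The genes beside the 6 were not part of the choice, so the fit over all genes tests them. In that fit 114 genes (1.21%) were lower and 94 (0.995%) higher in Pac than in DMSO libraries at an adjusted p under 0.01 (edgeR quasi-likelihood test, Benjamini-Hochberg adjustment), and the median log2 fold change of all genes was 0.07. Among the 3 nearest tested genes on each side of the 6, 36 in all and up to 3446 kb away, 0 were lower and 0 higher, and 8 had an unadjusted p under 0.05, a threshold that 25.1% of all tested genes passed in either direction. Their median log2 fold change was 0.11 and their range -0.62 to 1.06. The lowest of these was Ddx3x, an RNA helicase gene 3326 kb from Maoa, at 112.3 ± 42.5 CPM (SD, n = 17) in Pac against 173.2 ± 64.9 (SD, n = 12) in DMSO libraries (edgeR adjusted p = 0.0352). The highest was Idua, a lysosomal enzyme gene 870.2 kb from Crlf2, at 12.3 ± 5.85 CPM (SD, n = 17) against 5.88 ± 3.71 (SD, n = 12), with an edgeR adjusted p of 0.024. Idua passed the threshold with edgeR's likelihood ratio test (adjusted p = 0.00552), with DESeq2 (0.00372), without DMSO 12 (0.00649), without both DMSO 12 and Pac H9 (0.00171) and with the labels from DMSO 12 on moved (0.000597), in each case higher in Pac. Haao, 3.71 kb from C430042M11Rik, had 26.7 ± 20.02 CPM (SD, n = 17) in Pac and 22.5 ± 11.7 (SD, n = 12) in DMSO libraries. Mrpl32, 17.0 kb from AW209491, had 189.6 ± 46.7 CPM (SD, n = 17) against 259.3 ± 41.5 (SD, n = 12), with a log2 fold change of -0.45 and an edgeR adjusted p of 0.0261, and was called when DMSO 11 was left out. Zfp984, the zinc finger gene 111.5 kb from Zfp979, had 23.4 ± 6.02 CPM (SD, n = 17) and 20.5 ± 7.01 (SD, n = 12). None of the 36 fell by as much as any of the 6 genes.

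**Figure D4:**
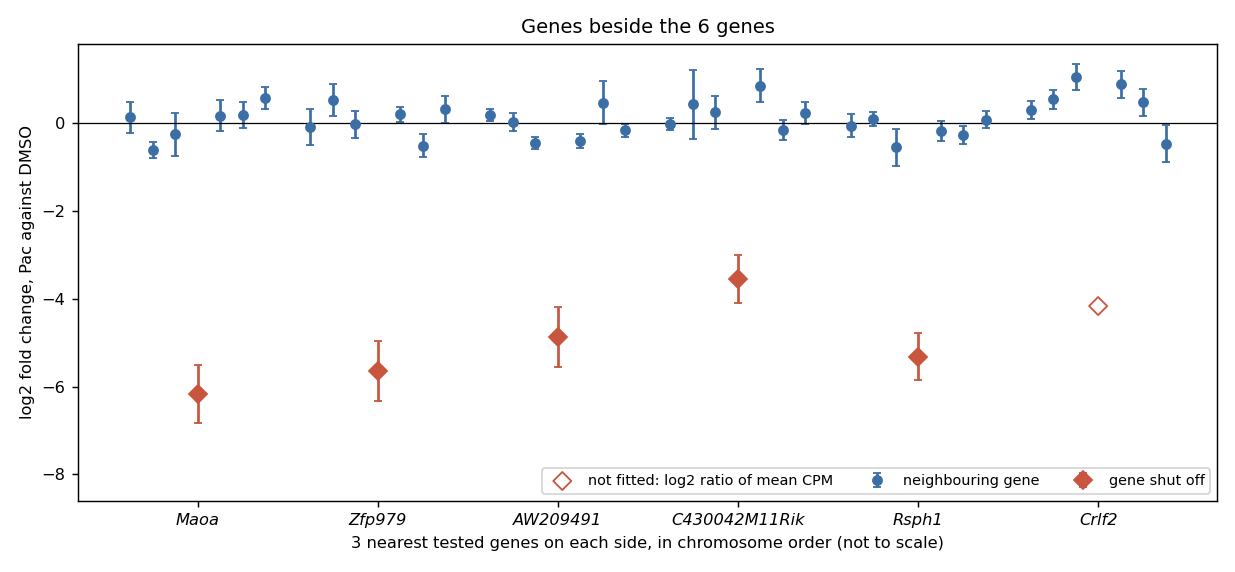
Log2 fold change of Pac against DMSO libraries (error bars, SE) for each of the 6 genes (red diamonds) and the 3 nearest tested genes on each side (blue points, in chromosome order and not to scale), with the open diamond for Crlf2 showing the log2 ratio of mean CPM. Neighbours lie between -0.62 and 1.06, and the fitted red diamonds between -6.16 and -3.55.

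Genes that work with the 6 were followed through lists. Of 23 genes of TSLP and IL-7 receptor signalling, 17 were tested, and 0 were lower and 0 higher by edgeR's quasi-likelihood test, by its likelihood ratio test and by DESeq2, beside 1.21% and 0.995% of all genes in the quasi-likelihood test. An unadjusted p under 0.05 was reached by 1 of the 17, beside 25.1% of all genes. At 1.21% and 0.995%, a list of this size would hold few calls or none. The median log2 fold change was 0.25. The ligands were near absent, with 1 count of Tslp in all 30 libraries and 0 of Il7, which allows up to 0.0284 CPM. Il2rg, the common gamma chain of the IL-7 receptor, had 255.6 ± 92.7 CPM (SD, n = 17) in Pac and 214.5 ± 63.6 (SD, n = 12) in DMSO libraries. Il7r, the chain that pairs with Crlf2 and chosen here after its values were seen, varied from 1.13 to 112.5 CPM in DMSO and from 5.13 to 94.5 CPM in Pac libraries, so the groups overlapped (log2 fold change -0.41, SE 0.447, edgeR adjusted p = 0.595). Stat6, which acts downstream of cytokine receptors, had the lowest adjusted p of the list, 0.0534 with edgeR, at 71.5 ± 15.3 CPM (SD, n = 17) against 55.1 ± 9.43 (SD, n = 12).

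Of 25 genes of amine metabolism, 8 were tested, and again 0 were called in either direction by any of the 3 tests. In the quasi-likelihood test 1.21% of all genes were lower and 0.995% higher. Over the whole table the likelihood ratio test called 216 lower and 232 higher, and DESeq2 224 and 267. Of the 8 genes 3 had an unadjusted p under 0.05, beside 25.1% of all genes, and the median log2 fold change was 0.02. Maob, the sister enzyme of Maoa, was listed at 0 counts in all 30 libraries, which allows up to 0.0284 CPM, as were the plasma membrane transporters Slc6a2, Slc6a3 and Slc6a4. Aldh2, an aldehyde dehydrogenase that can take on the products of monoamine oxidase, had 137.4 ± 60.1 CPM (SD, n = 17) in Pac against 89.6 ± 26.5 (SD, n = 12) in DMSO libraries, with a log2 fold change of 0.63 and an edgeR adjusted p of 0.0444, and did not pass the threshold. The other 2 with an unadjusted p under 0.05 were lower in Pac libraries and did not pass it either. Renbp, a renin-binding protein gene with the largest change of the list, had 3.73 ± 4.84 CPM (SD, n = 17) against 12.1 ± 6.61 (SD, n = 12), with a log2 fold change of -1.66 (SE 0.554, edgeR adjusted p = 0.0603), or -1.88 without DMSO 12 and Pac H9 (edgeR adjusted p = 0.0231). Aldh7a1, another aldehyde dehydrogenase gene, had a log2 fold change of -0.85 (SE 0.371, edgeR adjusted p = 0.151).

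Most of the ciliary programme to which Rsph1 belongs was not detected well enough to test, with 7 of 36 genes tested. Of the 7, 0 were called by any of the 3 tests (beside 1.21% of all genes lower and 0.995% higher in the quasi-likelihood test). An unadjusted p under 0.05 was reached by 0 of them (beside 25.1%). The median log2 fold change was 0.50. Rsph9, another radial spoke head gene, ranged from 5.09 to 50.4 CPM in DMSO and from 4.50 to 224.9 CPM in Pac libraries. Foxj1, the regulator of motile cilia, had 17 counts in all libraries and Rsph4a had 5. Of a list of 18 zinc finger and related genes, most of them numbered near Zfp979, 3 were tested (Zfp984, Zfp933 and Zfp991). Of these 0 were called by any of the 3 tests, beside 1.21% lower and 0.995% higher of all genes in the quasi-likelihood test. An unadjusted p under 0.05 was reached by 0 (beside 25.1%), and the median log2 fold change was 0.20. With 3 genes tested, these shares would give few calls or none. Among the 15 that were not tested, Zfp982 (55 counts in all) had 1.10 ± 0.939 CPM (SD, n = 12) in DMSO, 0.0989 ± 0.342 (SD, n = 17) in Pac and 1.78 in the parental library. Zfp992 (179 counts) had 2.496 ± 1.60 CPM (SD, n = 12) in DMSO and 1.05 ± 1.39 (SD, n = 17) in Pac libraries, and for both genes the groups overlapped.

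Of 35 co-repressors and silencing enzymes, 34 were tested, 0 were lower and 2 were higher in Pac libraries, beside 0.995% of all genes (median log2 fold change 0.18). An unadjusted p under 0.05 was reached by 10 of the 34, beside 25.1% of all genes. Dnmt3b, a de novo DNA methyltransferase, ranged from 0.496 to 6.13 CPM in DMSO and from 0.851 to 18.7 CPM in Pac libraries. The groups overlapped, and the means of 2.98 ± 1.65 CPM (SD, n = 12) and 8.32 ± 4.76 (SD, n = 17) differed by a log2 fold change of 1.41 (SE 0.326, edgeR adjusted p = 0.00722). Rnf2, a ubiquitin ligase of Polycomb repressive complex 1, had 37.99 ± 6.21 CPM (SD, n = 12) in DMSO and 57.1 ± 13.7 (SD, n = 17) in Pac libraries (log2 fold change 0.58, SE 0.134, edgeR adjusted p = 0.00678). Both calls lay close to the threshold. Leaving out 1 library at a time ended the call of Dnmt3b in 15 of 29 fits (edgeR adjusted p 0.0027 to 0.0154) and that of Rnf2 in 17 of 29 (0.00121 to 0.0201), with the log2 fold change of Dnmt3b between 1.296 and 1.549 and that of Rnf2 between 0.53 and 0.62. In the 17 Pac libraries the range of Rnf2 was 25.5 to 86.8 CPM, against 27.6 to 51.2 CPM in DMSO, so its groups overlapped too. Without DMSO 12 and Pac H9 both were called. Dnmt1, the maintenance DNA methyltransferase, had 98.7 ± 21.4 CPM (SD, n = 17) in Pac and 133.4 ± 36.2 (SD, n = 12) in DMSO libraries, with a log2 fold change of -0.43 (SE 0.135, edgeR adjusted p = 0.0415), and was called lower when the labels from DMSO 12 on were moved (adjusted p = 0.00588). Trim28, the co-repressor of KRAB zinc finger proteins and chosen here after its values were seen, had 174.6 ± 105.4 CPM (SD, n = 17) and 112.4 ± 65.7 (SD, n = 12), with an edgeR adjusted p of 0.14.

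**Figure D5:**
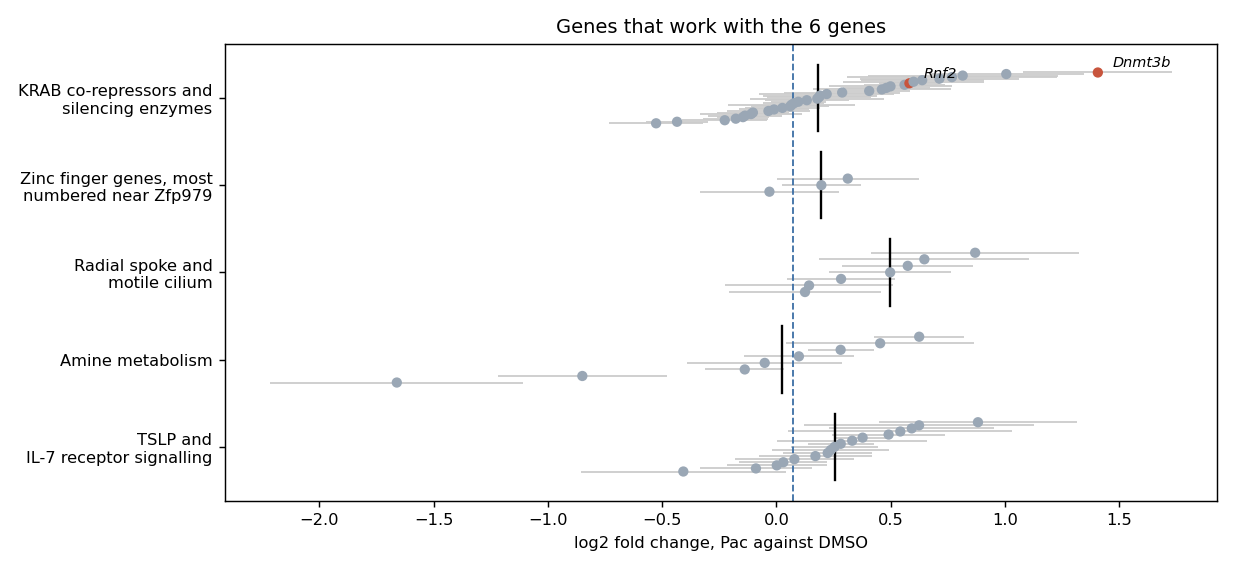
Log2 fold change of Pac against DMSO libraries for each tested gene of 5 lists (points, with SE as grey lines), black bars at list medians and a dashed line at the median of all tested genes, 0.07. The 2 called genes, Dnmt3b (1.41) and Rnf2 (0.58), are red and named.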

How the data were processed

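The authors prepared 3′-end libraries with a barcode and a random molecular identifier, in subpools of 15 lines, mapped the reads as single ends with STAR 2.5.1b (build GRCm38) and deposited the whole-number counts per gene that it gave, neither normalized nor filtered. Whether identifiers were collapsed and which line was in which subpool are not given in the sources used here, so this batch was not modelled. Symbols were found for 55141 of 55401 identifiers, and 0 columns were left unused. Gene positions are those of gencode M21 on GRCm38.

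Groups followed the labels of treatment. P-values measure the spread between lines. Pac and DMSO libraries were compared by edgeR's quasi-likelihood F test (version 4.0.16, R 4.3.3), with Benjamini-Hochberg adjusted p under 0.01, TMM factors and genes kept by filterByExpr, over 12 DMSO and 17 Pac libraries, with the parental library outside the fit. Distances used log2 CPM with a prior count of 2, and likeness used a pseudocount of 0.5 CPM. The code was tested on simulated data. Alternatives included DESeq2 1.42.0, other filters, thresholds, libraries and labels. Other steps ran in Python 3.11.15.

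The 6 genes and the lists were chosen with earlier results of these data known. Named beside them were their 3 nearest tested genes on each side, for each gene the 3 genes with the same state in the most libraries, and from each list the called genes, otherwise up to 4 of the highest level. Il7r, Trim28, Renbp, Dnmt1, Zfp982, Zfp992 and the genes given only by their total counts were named after their values were seen.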

Additional observations from a re-analysis of the deposited data

Results flagged for a closer look

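The parental library, which entered no comparison, had C430042M11Rik at 11.9 CPM (20 counts), above the highest of the 12 libraries labelled DMSO (11.8 CPM, DMSO 1). The difference is smaller than the spread between DMSO libraries (SD 3.22 CPM, n = 12), and with a single parental library it was not tested.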

How the results depend on the processing

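The log2 fold changes of the 5 fitted genes kept their sign in all 185 alternative values, which ran from -7.94 to -5.49 for Maoa, -7.59 to -4.98 for Zfp979, -6.42 to -4.39 for AW209491, -5.62 to -5.04 for Rsph1 and -4.07 to -3.43 for C430042M11Rik. Their choice on these libraries largely fixed that sign. The thinned libraries gave no value for any of the 5, and Maoa, Zfp979 and AW209491 had none without Pac H9. C430042M11Rik had none without Pac C1 or with at least 10 counts required in at least 12 libraries. In these cases the genes did not pass the filter. The genes lower and higher over the whole table moved more. They numbered 216 and 232 with edgeR's likelihood ratio test, 224 and 267 with DESeq2, 343 and 371 at an adjusted p under 0.05, 198 and 175 with labels from DMSO 12 on moved by 1 library, and 7 and 4 with every library thinned to the smallest total. The genes called higher numbered 158 without DMSO 12 and Pac H9, 168 without DMSO 11 and Pac C3 and 157 with log10 total counts as a covariate. Leaving out 1 library at a time gave 77 to 147 lower and 54 to 159 higher, the lowest without DMSO 2 (54), DMSO 4 (57) or DMSO 10 (58) and the highest without DMSO 11 (159). The causes were not tested.

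On and off counts depended on the limit where levels lay near it. With off set under 1 CPM, AW209491 was off in 14 of 17 Pac libraries and Rsph1 in 9, and with off under 5% of the DMSO median in 15 and 12. Crlf2 was off in 12 Pac libraries when 5 expected counts were enough and in 3 when 20 were needed. The same changes put C430042M11Rik at 13 and 8. Of 96 such counts 78 stayed within 1.5 times. With labels moved, Dnmt1 (log2 fold change -0.54) and Ddx3x (-0.73) were called lower and Idua (1.33) higher, and in the thinned libraries Dnmt3b and Rnf2 were not called. No paired analysis was possible because the DMSO and Pac lines share no replicate numbers.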
